A study of Mus musculus with 4 samples.

Results

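Hox genes encode homeodomain transcription factors that give cells along the head-to-tail axis their positional identity. The mouse has 39 of them in 4 clusters (Hoxa, Hoxb, Hoxc and Hoxd), and a gene's number, from 1 to 13, marks its place in the cluster. Low numbers are switched on first and reach forward into the hindbrain, and higher numbers are restricted to ever more caudal spinal cord, so that the set of Hox genes read in a neuron marks its axial level. Forebrain and midbrain lie in front of the Hox domain. In the hindbrain and cord, Hox proteins bind DNA with partners of the TALE class (Pbx, Meis and Pknox proteins) and set, among other things, the identity of motor neuron pools.

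Members were the probe sets (groups of short oligonucleotides read together as 1 value) whose single platform gene symbol is Hoxa, Hoxb, Hoxc or Hoxd followed by a number. The rule found 48 probe sets for 33 genes, out of 45037 non-control probe sets that name 18193 genes. The other 6 mouse Hox genes were not analysed here. The 33 genes fall into 10 of numbers 1 to 4 (the hindbrain and upper cervical numbers), 9 of numbers 5 to 8, and 14 of numbers 9 to 13 (the lower thoracic and lumbar numbers).

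The RNA on the 4 Affymetrix arrays is labelled as total RNA from brain, hindbrain and spinal cord of the mouse. Nugen-kit amplification gave cDNA for 2 of the arrays, and T7-based amplification gave antisense RNA (aRNA) for the other 2. Each pair is numbered 0 and 1. The labels give no strain, age, sex or treatment, leave the meaning of the numbers open, and do not say whether the tissues were pooled, from how many animals they came or whether both preparations used the same RNA. The p-values below therefore measure only the spread between these arrays, and the labels do not say whether that spread is technical or between animals. Within the aRNA pair, sex-linked transcripts differed, as given below, and the source of the spread was not tested. All arrays carry the same tissue label, so axial levels cannot be compared between them.

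The deposited values are linear intensities, already scaled to one trimmed mean on every array (2500.02), so total signal cannot be compared. An array's background level was the 95th percentile of its 27 control probe sets for Bacillus transcripts: 212 and 249 for cDNA arrays 0 and 1, and for the aRNA pair 123 and 126. General neuronal markers were bright throughout: Snap25, a synaptic membrane protein gene, read at or above 107402 on every array. Of 7 motor neuron genes, 5 were above background on all 4 arrays, among them the transcription factor gene Isl1, and 1, Mnx1, on none. Isl1 was higher on cDNA (0.81, limma adjusted p = 0.00905, with 1 other probe set called lower) and the vesicular acetylcholine transporter gene Slc18a3 lower (−2.47, adjusted p = 0.000164), and the other 3 tested did not pass. For these and the following counts, with 1 probe set per gene, 44.8% of all genes tested were called, 21.9% higher and 22.9% lower on cDNA. The 6 tested cerebellar markers were all higher on cDNA. Summed intensities over the 7 listed were 47013 and 121990 on cDNA against 3298 and 2274 on aRNA. Tests were limited by a filter, a mean log2 of at least 8.38 over all arrays. Pcp2, Cbln3, Gabra6 and Zic2 had aRNA means under it (6.66, 8.30, 7.51 and 6.46) and entered through their cDNA level. Their place in the count of 6 is thus no support for a difference. Cbln1 and Zic1 had aRNA means above the filter (9.95 and 9.77), with cDNA means of 14.33 and 14.50. Of 8 genes of meninges and fibroblasts, which can also hold Hox transcripts, 6 were higher on cDNA and 1 lower, with summed intensities of 68528 and 36453 on cDNA against 42867 and 23874 on aRNA. The gene that was lower, Dcn, made up most of the aRNA sums, with 39731 and 19658. Of the 6 higher, Col1a1, Foxc1 and Foxc2 also had aRNA means under the filter (8.03, 7.86 and 7.01). Of 10 measured forebrain and midbrain genes, which mark tissue in front of the Hox domain, 6 and 8 were above background on cDNA. For aRNA these counts were 4 and 3. Of 3 tested, 1 was higher on cDNA, En2, which also had an aRNA mean under the filter (7.90). The tested genes of inhibitory neurons (4) and glia (5) gave 2 higher each, with 1 lower for inhibitory neurons, and of 6 general neuronal genes 1 was lower. Blood cells can also hold Hoxa and Hoxb transcripts, and of 3 blood genes tested 2 were higher on cDNA (median difference 6.32). Summed intensities over the 4 blood genes measured were 7487 and 28235 on cDNA against 345 and 1646 on aRNA. Of these 4, 3 were above background on each cDNA array, 1 and 2 on the aRNA arrays, and 0 on all 4 arrays. The count of blood genes called thus rests on the side where they are high and is no support for a difference. The part of these markers in the Hox results was not tested. Fewer cells of a type and less RNA per cell cannot be told apart in such samples. Also, aRNA array 0 stood apart in sex-linked transcripts: Xist, the RNA of the inactive X chromosome, read 359 there against 3913, 5812 and 44312 on the other arrays, and the Y-linked Eif2s3y read 8896 there against 226, 11 and 94.7. The 2 aRNA arrays thus differed in both, in opposite directions, and results without aRNA array 0 are given below. Eif2s3y was also above background on cDNA array 0 and not on cDNA array 1. Its number 1 minus number 0 difference was −3.17 on cDNA and −6.33 on aRNA. Over all probe sets it was called between the numbers (limma adjusted p = 0.0446), and Xist was not (0.133).

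To show the kind of sequence in front of these genes, the 250 bases before the RefSeq start (GRCm38.p6) are printed for 3 members around which the results turn. Hoxa5 has a probe set above background on all 4 arrays, Hoxa9 has one above it on both aRNA arrays and no cDNA array, and Hoxc4 one above it on both cDNA arrays and no aRNA array. Capitals mark CpG dinucleotides, the bases that DNA methylation acts on.
Hoxa5, chr6:52204588-52204837, minus strand: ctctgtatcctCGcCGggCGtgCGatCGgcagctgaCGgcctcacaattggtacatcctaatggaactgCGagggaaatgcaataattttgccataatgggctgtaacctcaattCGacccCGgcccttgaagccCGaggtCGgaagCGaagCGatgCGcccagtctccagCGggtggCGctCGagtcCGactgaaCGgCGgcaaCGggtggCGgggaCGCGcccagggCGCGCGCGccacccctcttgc
Hoxa9, chr6:52227371-52227620, minus strand: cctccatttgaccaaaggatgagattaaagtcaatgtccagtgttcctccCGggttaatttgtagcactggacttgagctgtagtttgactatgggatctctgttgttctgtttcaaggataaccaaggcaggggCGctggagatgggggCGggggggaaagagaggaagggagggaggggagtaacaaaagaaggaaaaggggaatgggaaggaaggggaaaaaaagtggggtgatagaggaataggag
Hoxc4, chr15:103034145-103034394, plus strand: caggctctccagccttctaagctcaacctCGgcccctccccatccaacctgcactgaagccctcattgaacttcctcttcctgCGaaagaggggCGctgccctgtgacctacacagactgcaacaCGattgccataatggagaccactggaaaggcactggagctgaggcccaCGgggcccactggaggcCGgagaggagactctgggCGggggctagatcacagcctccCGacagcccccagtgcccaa

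These windows hold 28, 3 and 8 CpG dinucleotides. The RefSeq table gave 24 such windows for 22 Hox genes, with a median of 12.5 CpG (range 2 to 35) and 58.6% G and C, against medians of 6 CpG and 52.4% over all 32851 windows. The letters TGATTNAT, a site type that Hox and Pbx proteins bind together, were searched on both strands and no overlap with another motif was sought. They occurred in 2 of the 24 Hox windows (8.33%), those of Hoxa2 and Hoxd11, and in 2.82% of all windows. A match is only a run of letters, and the arrays do not measure promoters.

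The first question was which Hox transcripts could be seen at all. Most read at or near background. Of the 48 probe sets, 12 (25%) lay above background on cDNA array 0, 14 (29.2%) on cDNA array 1, and 20 (41.7%) on each aRNA array, against 62.7%, 60.2%, 71.6% and 71.1% of all non-control probe sets on these arrays in the same order. Across all 4 arrays 4 Hox probe sets (8.33%) were above background, against 48.0% of all, and 14 (29.2%) were above it on none, against 14.9% of all. The median Hox probe set sat at percentiles 23.4 and 24.3 of all probe sets for the cDNA pair, and 26 and 22.8 for the aRNA pair. For comparison, 1 or 2 of 7 marker genes of kidney, gut and limb were above the level on each array.

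Low numbers were above background more often than high ones on every array. Of the 16 probe sets for numbers 1 to 4, 50% and 56.2% were above background for the cDNA pair, and 62.5% and 43.8% for the aRNA pair. For numbers 9 to 13 (17 probe sets) the shares were 11.8% on both cDNA arrays, and 29.4% and 35.3% on aRNA. With 1 common level on every array, numbers 1 to 4 had 37.5% and 56.2% on cDNA, and 43.8% and 31.2% on aRNA. Numbers 9 to 13 then had 5.88% and 11.8% on cDNA, and 11.8% on both aRNA arrays. At each array's own level, numbers 5 to 8 (15 probe sets) lay between on 3 arrays (13.3%, 20% and 33.3%). They were the highest class on aRNA array 1 (46.7%). Taking 1 probe set per gene, the first class fell below the last on aRNA array 1 alone (40% against 42.9%). These are shares of probe sets of unlike affinity, given with no test, and brightness does not rank one gene against another.

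**Figure D1:**
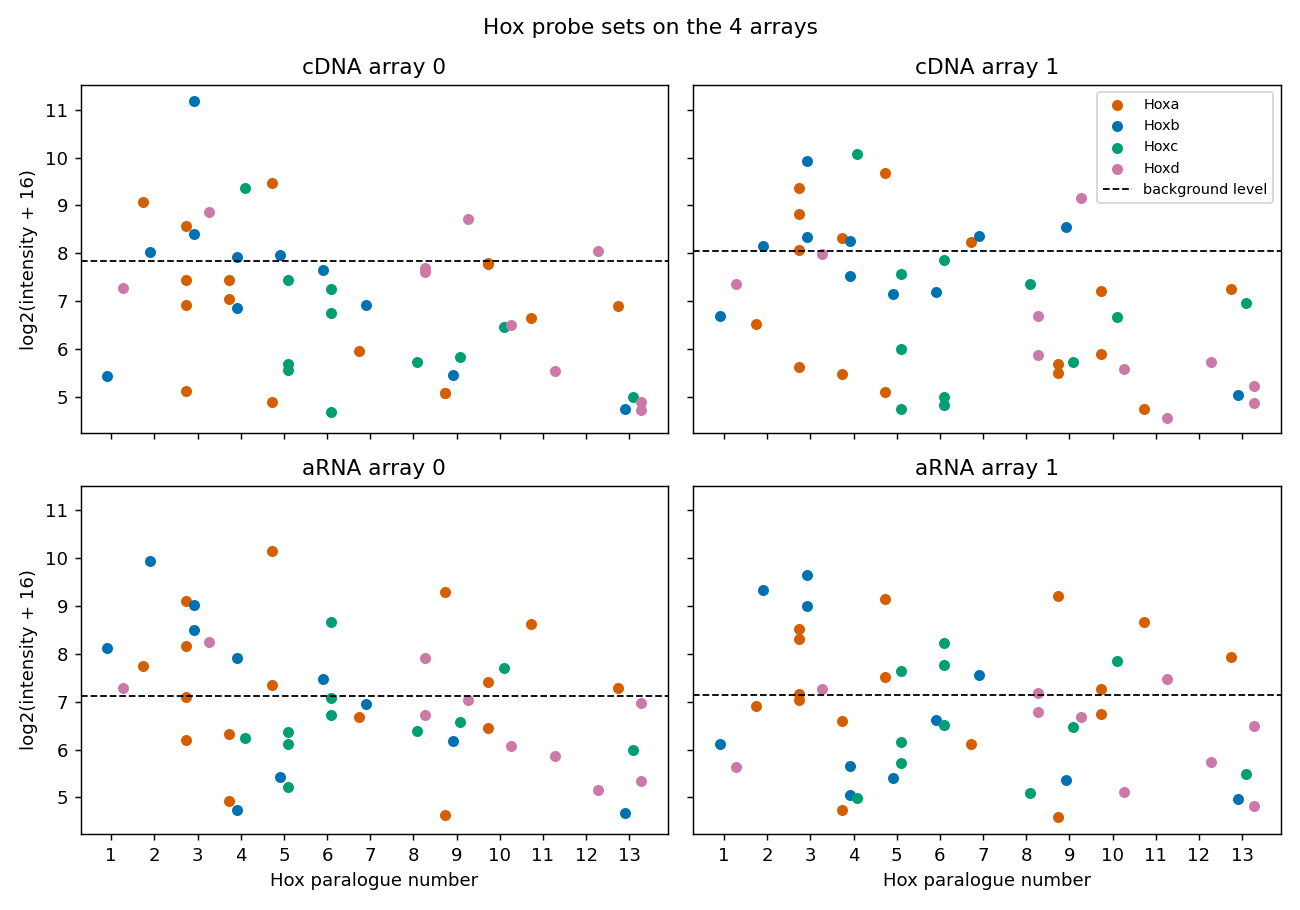
Each point is 1 of the 48 Hox probe sets, with its paralogue number on the x axis and log2(intensity + 16) on the y axis, 1 panel per array, coloured by cluster; the dashed line is the array's background level. On the cDNA arrays most points above the line have numbers 1 to 4 (8 of 12 and 9 of 14), and on the aRNA arrays these are 10 and 7 of 20.

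**Figure D2:**
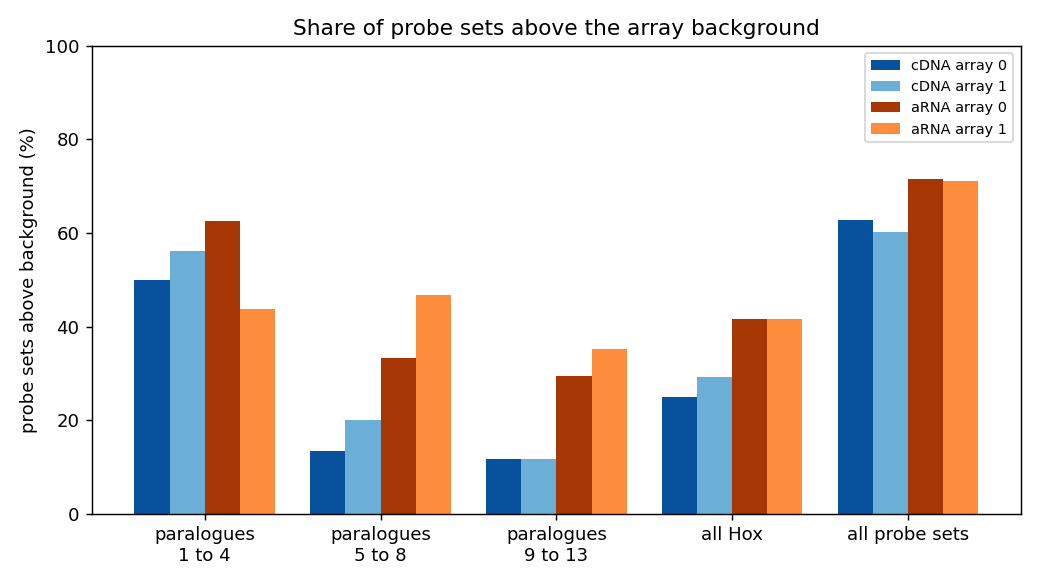
Bars give the percent of probe sets above the background level of each array, for paralogue classes (16, 15 and 17 probe sets), all 48 Hox probe sets and all 45037 non-control probe sets. In every class of Hox genes the share lies below that of all probe sets on the same array.

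By cluster, Hoxb had the largest share above background on both cDNA arrays (5 and 6 of 11 probe sets) and Hoxc the smallest (1 of 11 on each). On the aRNA arrays Hoxa had 9 of 16 on each, Hoxb 6 and 4 of 11, Hoxc 2 and 4 of 11, and Hoxd 3 of 10 on each. Hoxd on cDNA had 3 and 1 of 10. The Hoxc probe set above background on cDNA was that of Hoxc4. The clusters hold unlike mixes of numbers, so shares by cluster and by number are not separate results. Genes with no probe set above background on any array were Hoxb13, Hoxc8, Hoxc9, Hoxc13, Hoxd10 and Hoxd13, that is 5 of the 14 genes of numbers 9 to 13, 1 of the 9 of numbers 5 to 8 and none of the 10 of numbers 1 to 4. Hoxb13 was dim on every array, between 9.64 and 16.8. Its paralogues Hoxa13 and Hoxc13, reached at most 228 and 108.

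The genes whose best probe set was above background on all 4 arrays were Hoxb3, Hoxb2 and Hoxa5. Hoxb3 acts in the caudal hindbrain, Hoxb2 in rhombomeres of the facial motor nerve region, and Hoxa5 at the cervical level, where it is needed for phrenic motor neurons. At probe set 1456229_at, Hoxb3 gave cDNA values of 2316 and 965 (arrays 0 and 1), and aRNA values of 506 and 792. Both cDNA arrays thus lay above both aRNA arrays, though cDNA array 1 by little. At its other probe set, 1427605_at, the readings were 322, 309, 347 and 494 in the same order, with the aRNA arrays on top. Hoxb3 was the one gene with both of its probe sets above background throughout.

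Hoxb2 (1449397_at) gave cDNA values of 244 and 269, just over the levels of 212 and 249, and aRNA values of 964 and 633. Hoxa5 read 689 and 806 on cDNA and 1116 and 552 on aRNA at 1443803_x_at, where the groups overlapped. The suffix _x_at marks a probe set that can share probes with other transcripts. The second Hoxa5 probe set, 1448926_at, read 13.5 and 18.3 on cDNA and 148 and 167 on aRNA, so the probe sets of this gene differed.

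Both arrays of a preparation were above background, at 1 probe set or more, for 7 genes on cDNA (Hoxa3, Hoxa5, Hoxb2, Hoxb3, Hoxb4, Hoxc4 and Hoxd9) and for 11 on aRNA (Hoxa3, Hoxa5, Hoxa9, Hoxa10, Hoxa11, Hoxa13, Hoxb2, Hoxb3, Hoxc6, Hoxc10 and Hoxd3). Of the 7 on cDNA, 5 have numbers 1 to 4 and 1 has a number from 9 to 13. Of the 11 on aRNA these counts were 4 and 5. Probe sets above background on both arrays of 1 preparation and on none of the other belonged to Hoxa3, Hoxc4 and Hoxd9 for cDNA, and to Hoxa5, Hoxa9, Hoxa10, Hoxa11, Hoxa13, Hoxc6 and Hoxc10 for aRNA. These were 3 (6.25%) and 7 (14.6%) of the 48 probe sets, against 2.15% and 7.72% of all non-control probe sets. Among probe sets with a mean log2 under the median of all, these shares were 6.98% and 16.3% for Hox, against 3.91% and 15.0% of all. The lower background of the aRNA arrays enters this list: with the highest of the 4 levels (249) applied to every array, a setting chosen after seeing the data, the aRNA side kept Hoxa9, Hoxa11 and Hoxc6 and the cDNA side all 3.

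The second question was whether the preparations gave different Hox signal. Values were compared as log2(intensity + 16), on which the fold of a dim probe set is understated, with limma over the 22519 probe sets whose mean was at or above the median. Only 5 Hox probe sets, for Hoxa3, Hoxa5, Hoxb2 and Hoxb3, passed that filter. Of these 0 were higher and 1, Hoxb2, was lower in the cDNA group, and 4 missed the threshold of 0.05, where 43.2% of all tested probe sets were called (20.2% higher and 22.9% lower). The median difference was −0.38 over the 5, against −0.11 over all tested. It changed sign without cDNA array 0 (0.04) and with all 48 probe sets (0.15). This median is the value of Hoxb3 at 1427605_at. That probe set and those of Hoxa3 and Hoxb2 had cDNA means of 8.37, 8.14 and 8.09, under the filter of 8.38. They entered the test through their aRNA level, so the sign of the median is no support for a difference. With 2 arrays against 2, an exact two-sided permutation test cannot go below p = 0.333, and none was run.

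Hoxb2 was 8.09 ± 0.09 on cDNA and 9.64 ± 0.42 on aRNA (log2 levels, SD, n = 2), a difference of −1.55 (SE 0.50) and a 2.93-fold lower level on cDNA (limma adjusted p = 0.0339). Both cDNA arrays lay under both aRNA arrays. The call was lost without aRNA array 0 (−1.25, adjusted p = 0.28), aRNA array 1 (0.0922) or cDNA array 0 (0.0566), and when all probe sets were tested (0.0829). With a cDNA mean under the filter of 8.38, Hoxb2 entered the test through its aRNA level, so its count among the 5 is no support for a difference.

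The other 4 probe sets did not pass. Hoxb3 was 10.56 ± 0.88 on cDNA and 9.34 ± 0.45 on aRNA at 1456229_at, a difference of 1.22 (SE 0.51, limma adjusted p = 0.0827), which passed without cDNA array 1 (1.84, adjusted p = 0.0153). It was 0.60 without cDNA array 0 (adjusted p = 0.375), 0.90 without aRNA array 0 (0.294) and 1.54 without aRNA array 1 (0.0849). Its other probe set differed by −0.38 (SE 0.52, adjusted p = 0.59). Hoxa5 differed by −0.07 (SE 0.48, adjusted p = 0.913). Hoxa3, a gene of the caudal hindbrain and pharyngeal arches, differed by −0.66 at 1452421_at (SE 0.79, adjusted p = 0.527). Its cDNA values were 105 and 645, and its aRNA values 533 and 350, so the cDNA arrays differed more from each other than the group means did.

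Most probe sets seen in 1 preparation only did not pass the filter on the mean over all arrays: 89 of the 970 above background on both cDNA arrays and no aRNA array passed, 111 of the 3478 for the reverse, and none of the Hox probe sets of either kind. With all 45037 probe sets tested, 4 of the 48 Hox probe sets passed (8.33%), with cDNA the higher side at 2 and the lower at 2, against 21.2% of all (10.4% higher and 10.8% lower). At an unadjusted p under 0.05 these shares were 29.2% and 34.3%. The 4 genes, named after their values were seen, were Hoxc4 and Hoxa4 on the higher side and Hoxa9 and Hoxa11 on the lower side. The calls were of number 4 on one side and numbers 9 and 11 on the other, but these are 4 picked probe sets. No trend with number was tested, and Hoxd9, also of number 9, was higher on cDNA by 2.09 without a call.

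Hoxc4 (1422870_at), the most rostral gene of its cluster and one of the cervical cord, gave cDNA values of 643 and 1061. Its aRNA values were 60 and 15.8, under background on both. The difference was 4.10 (SE 0.79, limma adjusted p = 0.00869), at least 6.0-fold higher in cDNA when the aRNA side is set at its background. It was called with any 1 array left out (adjusted p from 0.024 to 0.0469), the only one of the 4 of which this held.

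Hoxa9 (1421579_at), a gene of thoracic to lumbar cord, showed the opposite. It gave 17.5 and 29.2 in cDNA, and 612 and 580 in aRNA, a difference of −3.98 (SE 0.75, limma adjusted p = 0.00803), at least 2.49-fold lower on cDNA. Without aRNA array 0 or 1 it did not pass (adjusted p = 0.0794 and 0.0711). Its other probe set, 1455626_at, read 17.8, 35.4, 8.84 and 8.04, under background on all 4 arrays, so 1 of the 2 Hoxa9 probe sets was above background anywhere.

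Hoxa11 (1420414_at), a lumbar and limb gene that lies beyond Hoxa10 from Hoxa9 on chromosome 6, gave 83.8 and 10.6 in cDNA, and 379 and 393 in aRNA. The difference was −2.96 (SE 0.89, limma adjusted p = 0.0493), at least 1.64-fold lower on cDNA. Hoxa10, between the 2, gave no such contrast: its probe set 1446408_at read 206 and 133 on cDNA and 154 and 139 on aRNA. Hoxa4 (1427354_at), a hindbrain and cervical gene, read 116 and 302 on cDNA and 14.1 and 10.5 on aRNA (2.86, SE 0.82, limma adjusted p = 0.0417). Only cDNA array 1 was above background, and the bound was 1.46-fold, with none left without cDNA array 1 and 2.27-fold without cDNA array 0. Hoxa11 and Hoxa4 were called without cDNA array 0 (adjusted p = 0.0256 and 0.0325) and not without any other array (from 0.0824 to 0.226).

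**Figure D3:**
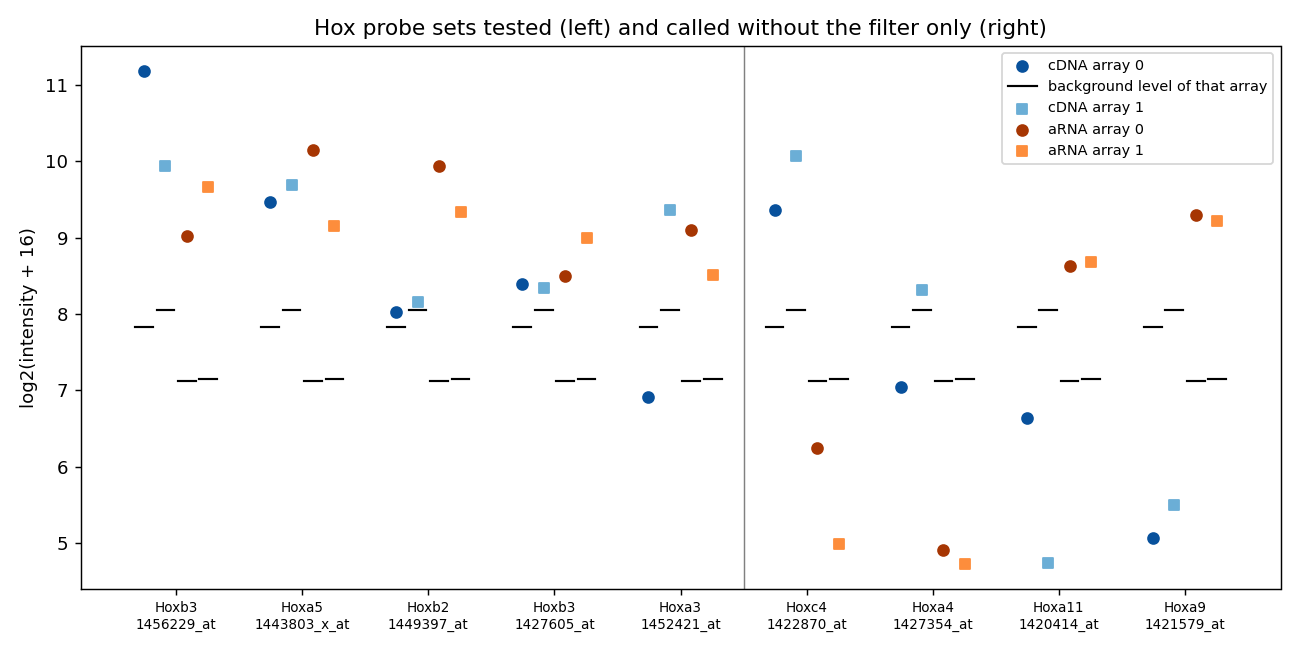
Points give log2(intensity + 16) of 9 Hox probe sets on each of the 4 arrays, and short black lines the background level of that point's array; the 5 on the left passed the filter and the 4 on the right were called only without it. Hoxc4 lies above the lines on cDNA and below them on aRNA, and Hoxa9 and Hoxa11 the other way round.

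Over the 48 probe sets, the arrays of the 2 preparations did not overlap at 22 (45.8%), with cDNA higher at 9 and lower at 13, against 61.6% of all non-control probe sets (31% higher and 30.6% lower). Among numbers 1 to 4 cDNA was higher at 6 of these and lower at 3, among numbers 5 to 8 at 1 and 3, and among numbers 9 to 13 at 2 and 7. At 14 of the 22, both arrays of the higher side were above background, and at the other 8 at least 1 of them was not. Hoxd9 was higher on cDNA, with 406 and 555 on cDNA and 115 and 85.9 on aRNA (2.09, limma adjusted p = 0.0676 over all probe sets). Hoxd9 was chosen after its values were seen, and no test of a trend with number was made.

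**Figure D4:**
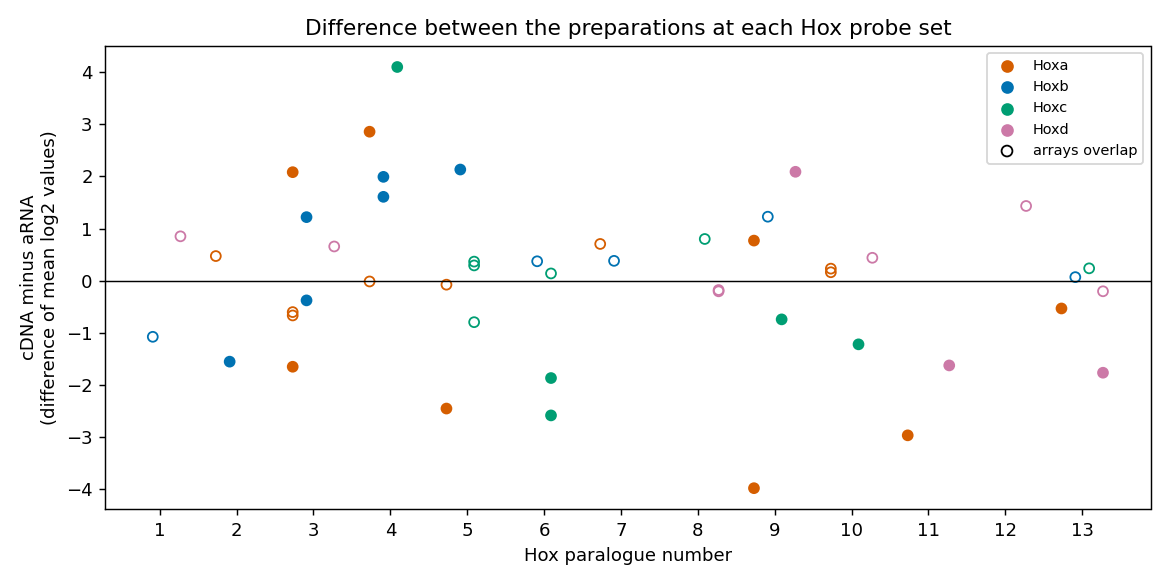
Each point is the difference of the mean log2 values, cDNA minus aRNA, of 1 Hox probe set against its paralogue number; filled points have arrays that do not overlap between the preparations (22 of 48). The extremes are Hoxc4 at 4.10 and Hoxa9 at −3.98.

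Probe sets of one gene often differed. Of 11 Hox genes with several, 6 had differences on both sides of 0. The 4 of Hoxa3 ran from −1.65 to 2.08. At 1427433_s_at Hoxa3 read 365 and 437 on cDNA and 57.3 and 116 on aRNA, while at 1431392_at it read 18.7 and 252 on cDNA and 270 and 304 on aRNA. The 2 probe sets of Hoxb4 were both higher on cDNA (1.99 and 1.61) and those of Hoxd13 both lower (−1.76 and −0.20).

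Arrays of a pair also differed at these probe sets. The median absolute difference between the 2 cDNA arrays was 0.85 for the Hox probe sets, and 0.54 between the 2 aRNA arrays. Over all non-control probe sets these were 0.58 and 0.44, and over those that did not pass the filter, as 43 Hox probe sets did not, 1.0 and 0.65. Between the means of the preparations the median absolute difference was 0.78 for Hox, 0.92 for all and 0.97 for the dim ones. Over the 48 Hox probe sets, Pearson's r came to 0.57 within cDNA and 0.81 within aRNA, and from 0.14 to 0.35 between the preparations, as a description of probe sets that share their arrays. The same values were 0.90, 0.95 and 0.82 to 0.83 over all non-control probe sets. Under the filter they were 0.46, 0.72 and −0.21 to 0.13 for the 43 Hox probe sets, against 0.34, 0.61 and 0.12 to 0.16 for all.

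Between the arrays numbered 1 and 0, no Hox probe set passed in a limma model with preparation and number, of 5 tested or of 48 without the filter. By adjusted p, 0.0622% of all probe sets were called with or without the filter. No Hox probe set had an unadjusted p under 0.05, against 5.86% of all tested (5.29% without the filter). The number 1 minus number 0 difference had the same sign in both preparations at 20 of 48 (41.7%), against 50.7% of all non-control probe sets. Among 4 with the same sign and the higher arrays above background, the largest were Hoxa2 (−2.55 on cDNA and −0.83 on aRNA), a gene of rhombomere 2 and the second pharyngeal arch, Hoxa3 at 1431392_at (2.95 and 0.16) and Hoxb7 (1.44 and 0.61), with unadjusted limma p of 0.0788, 0.123 and 0.272 (adjusted p = 0.925, 0.927 and 0.943). Hoxa2 gave cDNA values of 521 and 76, and aRNA values of 198 and 104, above background on the number 0 arrays only.

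The genes that work with, or act on, Hox genes were taken as 5 lists. For these each gene entered by its probe set of highest mean, and the 44.8% given above is the share called of the 11945 genes so tested. Of 8 measured TALE partner genes, 6 were above background on all 4 arrays; of 7 tested, 3 were higher and 3 lower on cDNA (median difference 0.54). Meis1, a Hox cofactor, read 395 and 457 on cDNA and 2383 and 2155 on aRNA (−2.37, limma adjusted p = 0.00151). Meis3, a hindbrain cofactor, was higher on cDNA (1.76, adjusted p = 0.0271), as was Pknox2 (1.67, adjusted p = 0.00693), and Pknox1 was lower (−1.90, adjusted p = 0.0237). Meis3 did not pass without cDNA array 1 or aRNA array 1, nor Pknox1 without cDNA array 1 or either aRNA array (adjusted p up to 0.161 and 0.136), and neither passed without the filter.

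Of 9 measured upstream regulators of the hindbrain and body axis, 2 were tested and both were higher on cDNA. Egr2 (Krox20), which drives Hox genes in rhombomeres 3 and 5 and in adult tissue is also an activity and Schwann cell gene, read 1218 and 768 on cDNA and 107 and 273 on aRNA. It was at least 4.91-fold above aRNA (limma adjusted p = 0.0113), and did not pass without cDNA array 0 or aRNA array 0 (adjusted p up to 0.0689). Nr6a1, a nuclear receptor of trunk elongation, differed by 1.79 (adjusted p = 0.00561). The caudal homeobox genes Cdx1 and Cdx4, which switch on trunk Hox genes in the embryo, and Fgf8 were above background on no array.

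Retinoic acid, which turns on the low-numbered Hox genes, had 3 of 9 tested pathway genes higher and 1 lower on cDNA (median 0.14). Crabp2, a retinoic acid carrier, read 2886 and 1722 on cDNA and 46 and 35.4 on aRNA, at least 16-fold above aRNA (limma adjusted p = 0.000165). Crabp2, Egr2 and Kdm6b passed the filter through the cDNA arrays alone, and Pknox1 through the aRNA arrays alone, so their place in the counts of tested genes rests on the side where they are high. The synthesis enzyme gene Aldh1a2 was also higher (1.92, adjusted p = 0.0146), as was the receptor gene Rxra (1.46, adjusted p = 0.00262), and the degrading enzyme gene Cyp26b1 was lower (−1.41, adjusted p = 0.0162). Meninges also make Crabp2 and Aldh1a2, and the meningeal list given above moved the same way for 6 of its 8 genes; its part was not tested. Aldh1a2 did not pass without cDNA array 0 or aRNA array 1, nor Cyp26b1 without cDNA array 1 or either aRNA array (adjusted p up to 0.0706 and 0.0835).

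Polycomb genes, which keep Hox clusters silent outside their domain, were above background on all 4 arrays for 20 of 21 measured. Of 20 tested, 2 were higher and 2 lower on cDNA (median −0.22). These were Cbx6 (0.68, limma adjusted p = 0.0292), Mtf2 (0.91, adjusted p = 0.0239), Cbx8 (−1.63, adjusted p = 0.0112) and Ezh1, a histone H3 lysine 27 methyltransferase (−1.26, adjusted p = 0.00856). Of these 4, Ezh1 alone passed with any 1 array left out. Cbx8 did not pass without aRNA array 0 (adjusted p = 0.0897), Mtf2 without either cDNA array or aRNA array 1, nor Cbx6 without either cDNA array or aRNA array 0 (adjusted p up to 0.101 and 0.154). The probe sets of 3 of these genes disagreed: of the 3 tested for Ezh1, 2 were called higher and 1 lower, and Mtf2 and Cbx6 each had 1 called higher and 1 lower. Of 11 trithorax and demethylase genes, which oppose that silencing, 3 were higher and 3 lower (median −0.38). Kdm6b, a histone H3 lysine 27 demethylase, was at least 93.3-fold higher on cDNA at 1447612_x_at (29692 and 29467 on cDNA, 71.9 and 707 on aRNA, limma adjusted p = 0.000249). That limit was 40.9-fold without aRNA array 0 and 213-fold without aRNA array 1. Its other tested probe set was called lower. Kmt2d was higher by 4.10 (adjusted p = 8.17e-05), and Dpy30 and Wdr5 were lower (−2.00 and −1.51, adjusted p = 0.000357 and 0.00512).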

How the data were processed

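The 4 arrays carried 2 cDNA and 2 aRNA targets. The deposited table holds 1 linear intensity per probe set and array. The software and normalization behind it are not given in the sources used here. Of 45101 probe sets, 64 controls were left out of tests. Gene names came from the platform annotation: 34945 probe sets had 1 symbol, 932 several and the rest none.

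Intensities were used as log2(intensity + 16). Background was the 95th percentile of 27 Bacillus controls on each array. Differences were fitted with limma 3.58.1 in R 4.3.3 (lmFit, eBayes with an intensity trend) over 22519 probe sets whose mean log2 was at least 8.38, the median, with Benjamini-Hochberg adjustment over all of them and a threshold of 0.05. The number comparison kept the preparation in the model. A fold with an array of the lower side under background is a lower bound against that level. The script was tested on simulated data.

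The members, companion lists and marker lists were chosen with earlier results of these data known. Named were Hox genes called, those above background on all 4 arrays and those above it on none, the 3 largest same-sign number differences, and up to 4 called genes per companion list. Genes outside this rule are said to be chosen after their values were seen, or are given as group examples. Alternatives changed the pseudocount, filter, scaling, trend, block, background level, probe sets and arrays. Precision is limited by the number of arrays.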

Additional observations from a re-analysis of the deposited data

Results flagged for a closer look

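The difference between the arrays numbered 1 and 0 ran in opposite directions in the preparations at all 5 Hox probe sets that passed the filter. The log2 difference, number 1 minus number 0, was 2.45 on cDNA and −0.59 on aRNA for Hoxa3 (1452421_at). It was 0.22 and −0.99 for Hoxa5 (1443803_x_at), and 0.13 and −0.59 for Hoxb2. For Hoxb3 it was −1.25 and 0.63 at 1456229_at, and −0.05 and 0.49 at 1427605_at. Whether these differ between the preparations was not tested, with 1 array per number and preparation.

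Probe sets outside the rule also gave signal. Hoxb5os, an opposite-strand transcript of the Hoxb cluster, read 519 and 499 on the aRNA arrays (mean intensity 509) and 148 and 114 on the cDNA arrays, above background on aRNA alone. A probe set shared by Hoxd4 and Hoxd3 (1421537_at) read 189 and 128 on aRNA (mean intensity 159) and 17 and 12.6 on cDNA. It cannot be assigned to 1 of these genes.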

How the results depend on the processing

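One Hox probe set was called between the preparations under 8 settings: pseudocounts of 1 and 64, median centring, quantile normalization, no intensity trend, the replicate block, no _x_at or _s_at probe sets, and values raised to background. Without the filter 4 were called and the median difference was 0.15. Leaving out 1 array gave 0 to 2 calls, and medians from −0.57 to 0.04. Without the filter, leaving out 1 array gave 1 to 5 (5 without cDNA array 0, 3 without cDNA array 1, 1 without either aRNA array), and the replicate block 4; these, the common background level and the folds with 1 array left out were chosen after seeing the data. A filter at the 75th percentile left no Hox probe set, so it gave no value. In the companion lists that filter left 14 calls of 27 genes, against 22 of 49, and the 4 leave-one-out fits 15 to 20.

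The share of Hox probe sets above background depended most on the level. On cDNA arrays 0 and 1 and aRNA arrays 0 and 1 it was 64.6%, 52.1%, 81.2% and 68.8% over the Bacillus median, and 89.6%, 87.5%, 93.8% and 93.8% over the 5th percentile of all probe sets. Over the 75th percentile of the Bacillus controls the Hox share was 45.8% on cDNA array 0 and 62.5% on aRNA array 0, against 72.4% and 80.1% of all. Over the maximum of these controls it was 10.4% on cDNA array 1, against 45.7% of all. With 1 common level the cDNA pair had 16.7% and 29.2%, against 22.9% and 18.8% for the aRNA pair, so the order of the preparations did not hold. Of all non-control probe sets, 59.0% and 60.2% lay over that level on cDNA, and 56.3% and 56.4% on aRNA. No direction of a called value was reversed. Between the numbers, 0 Hox probe sets were called in any setting run; with 1 array left out the number model has 0 residual degrees of freedom and gives no test. The number differences of the preparations correlated at r = 0.04 over 22519 probe sets, and the labels do not say that a number pairs arrays. With the number as a block the Hox count stayed at 1. Dim signal limits most of these results: 43 of the 48 probe sets lay under the filter.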
